A study of Drosophila melanogaster with 24 samples.

Results

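The ecdysone response transcription factors are the receptor of the moulting hormone and the regulators that the hormone switches on. The list held 10 genes: EcR, usp, Eip74EF, Eip75B, Eip78C, br, ftz-f1, Hr4, Hr39 and Hr46, which is now named Hr3. Members were all array probes that the platform's annotation ties to these genes under an old or a current symbol. Of the 10 genes 8 had a probe, 46 probes in all, among 12799 genes with a named probe. Eip74EF and Eip75B had no named probe.

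Moulting in insects is timed by pulses of the steroid 20-hydroxyecdysone. The hormone binds a receptor made of the proteins EcR and Ultraspiracle (usp), which then turns on early genes such as the zinc finger factor Broad (br) and several nuclear receptors. Hr3, Hr4 and Hr39 belong to the following, early-late layer, and at metamorphosis Hr3 helps to turn on ftz-f1, a competence factor that appears as the hormone falls. One such pulse precedes each larval moult, so that levels of these factors in young larvae move with age.

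The study asked how gene expression depends on Manf, a secreted protein of the endoplasmic reticulum and a neurotrophic factor. Whole fruit flies of a w- background were used in 6 groups, each of 4 samples by the labels, 24 in all, while the text of the study gives 3 independent sets. Late stage 17 embryos were wild type, Manf mz Δ96 mutants that lacked both the maternal and the zygotic gene product (21 to 24 h after egg laying), or paternally rescued, with Δ96 mutant mothers and a wild type copy from the father. Wild type and rescued embryos were picked as their tracheae filled with air, which mz mutants do not do. Larvae were wild type (29 to 45 h), zygotic Manf Δ96 mutants that had received maternal Manf and die young (29 to 50 h), or larvae in which 69B-GAL4 drove UAS-Manf (29 to 44 h). According to the study this driver acts in epidermis, parts of the nervous system, imaginal discs, garland cells and the ring gland, the gland that makes ecdysone. Animals were pooled in each sample, so that fewer cells of a type and less RNA per cell cannot be told apart.

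Levels are log2 intensities, on which 1 unit is a doubling, and each gene is given at its probe of highest mean, called the brightest probe. A difference was called where limma's moderated test gave an adjusted p under 0.01. Overexpressing larvae 69 and 70 were left out, since they correlated with the other 22 samples at 0.37 to 0.442 only, against 0.886 to 0.994 among these. Sample numbers form a low series (1 to 4) and a high series (63 to 88), and each group but the overexpressing larvae, of which 2 and 3 remain, has 2 samples in each. Wild type larvae were all labelled with Cy3, and the mutant and overexpressing ones with Cy5 or Alexa dye, so that dye and genotype cannot be told apart between them. Among embryos 3 of 4 wild type samples were in Cy3 and 1 in Cy5. The mz mutants were in Cy5 or Alexa dye and none in Cy3. Manf was at 11.10, 11.28, 11.48 and 11.25 in wild type embryos and at 10.12, 9.48 and 9.14 in mz mutant embryos 4, 87 and 88. The library labelled mz mutant embryo 1 was at 11.29, within the wild type range. Manf was at 11.65, 11.59, 13.18 and 13.64 in wild type larvae 1, 2, 63 and 65 and lower, at 10.67 and 10.46, in mutant larvae 2 and 4. The libraries labelled mutant larvae 65 and 66 were at 12.48 and 13.50, within the range of all wild type larvae, the former below both wild type larvae of its own series and the latter between them. The members' values without these 3 libraries are given where they move. The labels do not tie samples to separate cultures, and the p-values reflect sample to sample spread alone, which may be technical.

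Members were called between the stages and in no comparison of genotypes over the 22 samples. Hr3 and Hr4 were far higher in wild type larvae than in wild type embryos, while the hormone receptor genes EcR and usp, and br, Eip78C, Hr39 and ftz-f1, were not called. Hr3, a retinoid-related orphan receptor, had 11.85, 11.66, 12.06 and 11.88 in the 4 wild type larvae and 8.56, 8.57, 8.32 and 8.02 in the 4 wild type embryos. The larvae lay above the embryos by 3.49 on the log2 scale, which is 11.3-fold (SE 0.25, 95% interval 2.96 to 4.03, adjusted p = 6.24e-09). Hr4, a receptor that restrains growth and ecdysone production in larvae and acts at metamorphosis, had 10.98, 10.99, 10.91 and 10.64 in larvae and 9.11, 8.51, 8.01 and 7.80 in embryos. Its difference was 2.52, or 5.75-fold (SE 0.35, 95% interval 1.78 to 3.27, adjusted p = 2.33e-05). Thus 2 of 8 members were called, both higher. Of all genes 22.9% were called in this comparison and 12.9% were called higher.

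Hr3 and Hr4 were higher in larvae of every genotype. Embryos of the 3 genotypes, 12 samples, had Hr3 between 8.02 and 9.45 (median 8.56), and the 10 larvae had it between 10.80 and 12.09 (median 11.70). For Hr4 the embryos lay between 7.70 and 9.70 (median 8.32) and the larvae between 9.92 and 11.25 (median 10.95). All larvae were above all embryos in both genes, as they were in 7.16% of all genes. Within the low series the wild type difference was 3.19 in Hr3 and 2.17 in Hr4, and within the high series 3.80 and 2.87. Among samples in Cy3 alone, 4 larvae and 3 embryos, it was 3.56 (adjusted p = 2.66e-05) and 2.77 (adjusted p = 9.57e-05). Each of these values was called. With larvae 69 and 70 in the model the spread grew, and Hr4 had an adjusted p of 0.0237 while Hr3 kept 1.63e-08, in a fit that called 5.95% of all genes.

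**Figure D1:**
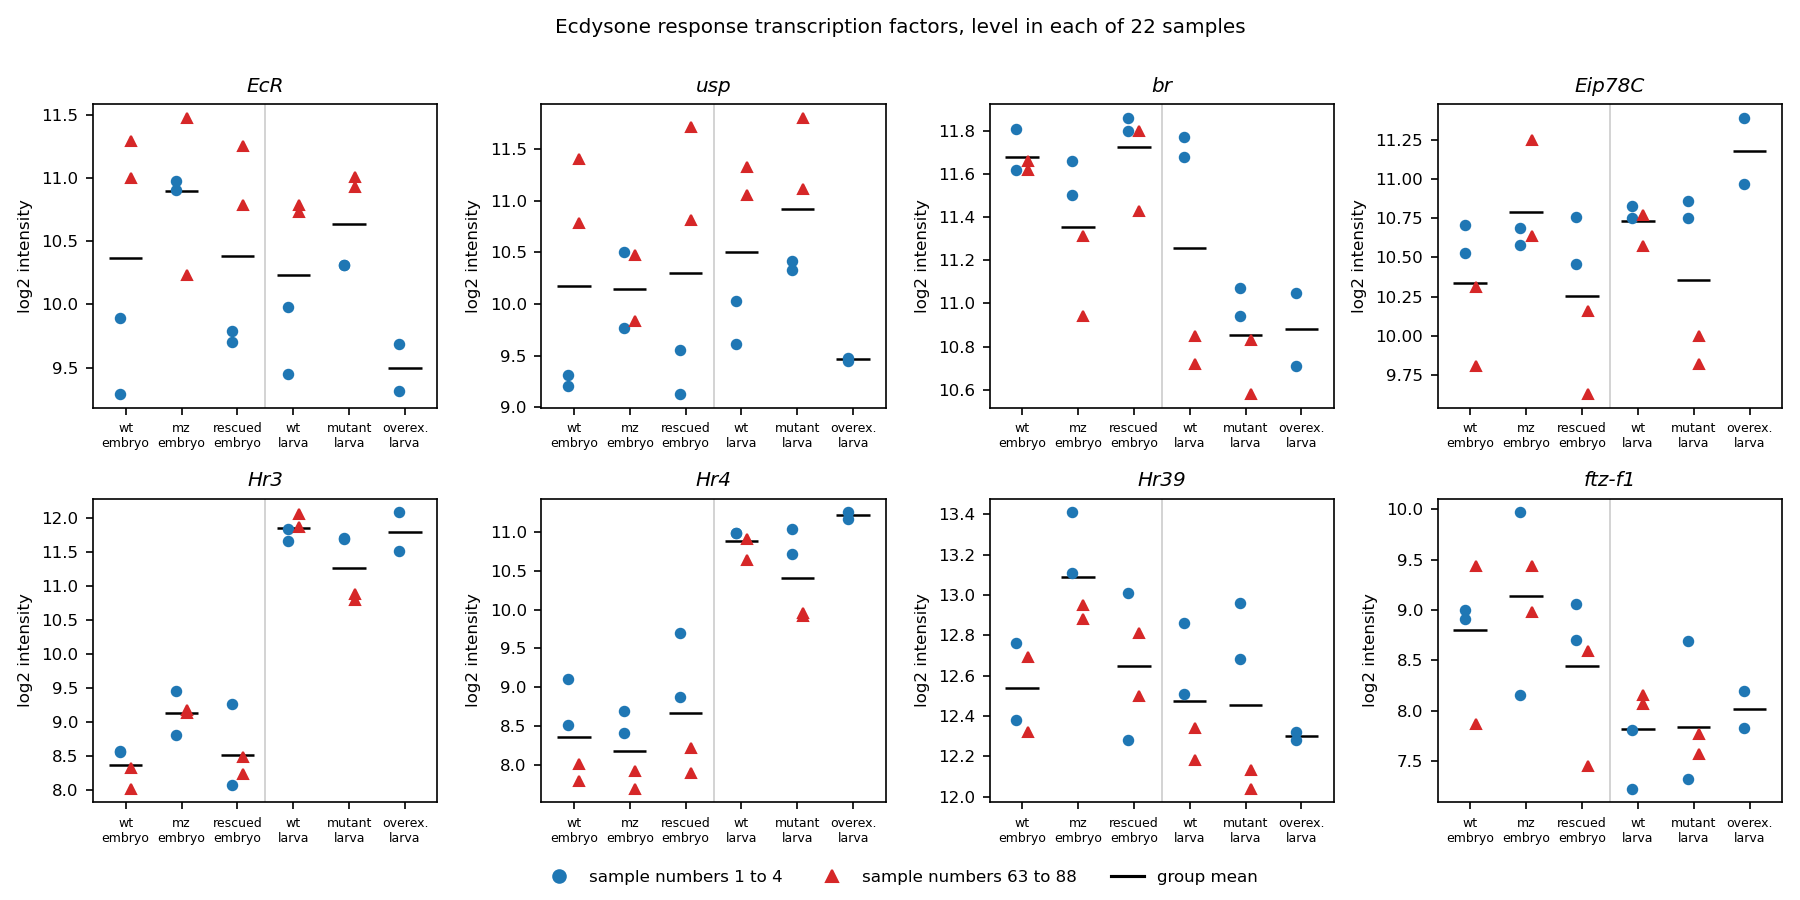
Log2 intensity at the brightest probe of each of the 8 genes (vertical axis, its own scale in each panel) in the 22 samples, by group. Blue circles are samples numbered 1 to 4, red triangles samples numbered 63 to 88, and black bars group means. In Hr3 and Hr4 all 10 larvae lie above all 12 embryos.

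Most probes of these 2 genes were called too. Of 11 Hr4 probes, all for 1 transcript, 10 were called, with log2 differences of 2.20 to 2.56, and the dimmest differed by 0.62. Of 5 Hr3 probes 4 were called, with 1.27 to 3.49, and the dimmest differed by 0.05. Over all probes on the array 16.1% were called. The other members had 30 probes, of which 0 were called by limma and 7 had an unadjusted p under 0.05. The 11 Hr4 probes had a median pairwise correlation of 0.984 over the 22 samples.

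**Figure D2:**
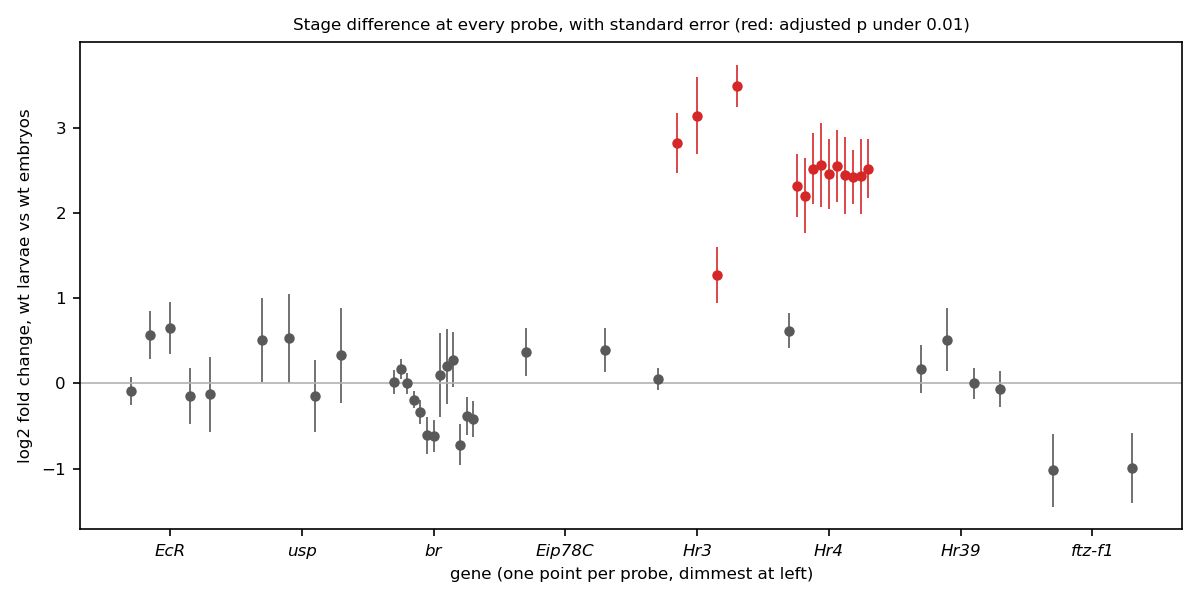
Log2 fold change of wild type larvae against wild type embryos (vertical axis) at each of the 46 probes, grouped by gene, with the dimmest probe of a gene at its left. Bars are standard errors and red marks an adjusted p under 0.01. Only probes of Hr3 (4 of 5) and Hr4 (10 of 11) are red, and the probes of br lie on both sides of 0.

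The remaining members differed less between the stages than the spread of the samples allowed to be called. For ftz-f1, an orphan receptor that marks the low hormone phase after a pulse, levels were 7.23, 7.81, 8.16 and 8.07 in wild type larvae and 9.00, 8.91, 9.44 and 7.87 in wild type embryos. Only embryo 83 fell within the range of the larvae. The difference was -0.99 (SE 0.41, adjusted p = 0.0983), and its second probe gave -1.02. With array weights, which count noisier samples less, it became -1.23 and was called (adjusted p = 0.00636), in a fit that called 32.1% of all genes. For br the difference was -0.42 (SE 0.21, adjusted p = 0.18). Its 13 probes fall on 5 annotated transcripts that did not run alike. On the transcript of the brightest probe 3 probes had -0.38 to -0.72, on another both had about -0.61 (-0.62 and -0.61), and on another 3 had 0.10 to 0.28. The lowest adjusted p of any br probe was 0.0199.

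Eip78C, a nuclear receptor induced by the hormone, differed by 0.39 between the wild type stages (SE 0.26, adjusted p = 0.345). For usp, the partner of the receptor, the value was 0.33 (SE 0.56, adjusted p = 0.755), for EcR -0.13 (SE 0.44, adjusted p = 0.882) and for Hr39, which is related to ftz-f1, -0.07 (SE 0.21, adjusted p = 0.876). The 95% intervals reached from -0.84 to 1.50 in usp and from -1.05 to 0.78 in EcR, so that a doubling of usp, or the reverse change in EcR, lay inside them. Hr39 was more tightly held, between -0.51 and 0.37.

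In mz mutant embryos 0 of 8 members were called by limma against wild type, where 5.66% of all genes were. At an unadjusted p under 0.05, which 25.6% of genes reached, there were 2: Hr3 and Hr39. Hr3 was at 8.81, 9.45, 9.13 and 9.17 in mz mutants against 8.02 to 8.57 in wild type embryos, and the groups did not overlap. The difference was 0.78, or 1.71-fold (SE 0.25, adjusted p = 0.0658). The 4 dimmer Hr3 probes overlapped between the groups and had -0.04 to 0.57, with adjusted p from 0.582 to 0.941. Hr39 was at 13.41, 13.11, 12.95 and 12.88 against 12.38, 12.76, 12.32 and 12.69, again without overlap, which gave 0.55 or 1.46-fold (SE 0.21, adjusted p = 0.122). All 4 Hr39 probes had positive values, 0.48 to 0.62, of which the lowest adjusted p was 0.0405. Groups that did not overlap, with mz mutants higher, were found in 6.3% of all genes.

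Without the library labelled mz mutant embryo 1 the Hr3 difference was 0.88 (adjusted p = 0.0388) and that of Hr39 was 0.44 (adjusted p = 0.256). With dye as a covariate they were 0.99 (adjusted p = 0.139) and 0.35 (adjusted p = 0.717). Of the markers of other tissues, 4 of 5 genes of epidermis and cuticle had positive values in mz mutants. Their summed level was 16.33 to 16.62, against 15.42 to 16.16 in wild type embryos. The chitin synthase gene kkv (2.01) and knk (1.78), which organises chitin, were called, as was the haemocyte gene Hml (1.85). The haemocyte markers did not run alike: of 4 genes 2 were positive and 2 negative, with a median of -0.26. The part of these markers in the values of Hr3 and Hr39 was not tested.

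The remaining 6 members of mz mutant embryos overlapped with wild type. EcR differed by 0.53 (SE 0.44), Eip78C by 0.45 (SE 0.26), ftz-f1 by 0.33 (SE 0.41), usp by -0.03 (SE 0.56), Hr4 by -0.17 (SE 0.35) and br by -0.33 (SE 0.21), with adjusted p from 0.396 to 0.994. Without the library labelled mz mutant embryo 1 ftz-f1 differed by 0.06, Hr4 by -0.34 and usp by 0.10 (adjusted p = 0.984, 0.761 and 0.981). EcR ran from 10.23 to 11.48 in mz mutants and from 9.29 to 11.30 in wild type embryos. In the low series mz mutants had 10.98 and 10.91 and wild type embryos 9.29 and 9.89. In the high series the values were mixed, 11.48 and 10.23 against 11.00 and 11.30. The br values of 3 of 4 mz mutants, between 10.94 and 11.50, lay below all wild type embryos (11.62 to 11.81). That was the brightest probe, on whose transcript 3 probes had -0.41 to -0.26. Of all 13 br probes 9 were positive and 4 negative, from -0.41 to 0.17.

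Embryos with a wild type copy from the father had 0 of 8 members called by limma, and 0 at an unadjusted p under 0.05, where 0.164% and 5.21% of all genes were. Log2 differences lay between -0.36 in ftz-f1 and 0.32 in Hr4, and in Hr3 the difference was 0.15 (SE 0.25) with levels of 8.07, 9.27, 8.24 and 8.48. Between mz mutant and rescued embryos, who share mutant mothers, again 0 of 8 were called (3.45% of all genes) and 1, Hr3, had an unadjusted p under 0.05 (24.3% of all genes). Hr3 differed by 0.63 (SE 0.25, adjusted p = 0.172), with rescued embryo 2 inside the mz mutant range. In this comparison Eip78C differed by 0.54, Hr39 by 0.44 and ftz-f1 by 0.69, with adjusted p of 0.298, 0.282 and 0.449. Without the library labelled mz mutant embryo 1 ftz-f1 had 0.41 (adjusted p = 0.751) and Hr3 0.74 (adjusted p = 0.102). Both comparisons with mz mutants use the same mz mutant samples.

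**Figure D3:**
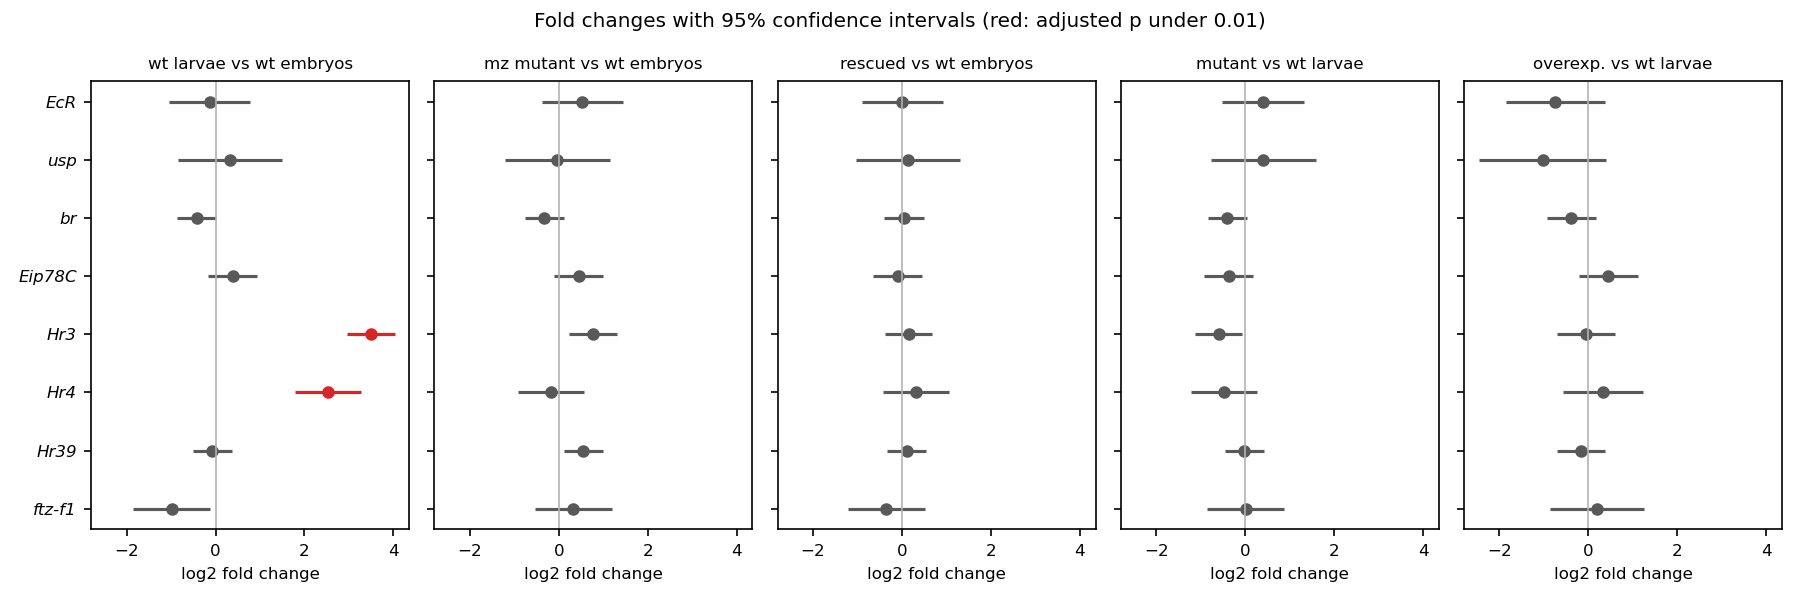
Log2 fold changes of the 8 genes (points) with 95% confidence intervals (lines) in 5 comparisons. Red marks an adjusted p under 0.01, which only Hr3 (3.49) and Hr4 (2.52) reached, in wild type larvae against wild type embryos.

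Mutant larvae, which unlike mz mutants had received maternal Manf, also had 0 of 8 members called by limma against wild type larvae, where 2.3% of all genes were called. At an unadjusted p under 0.05 there was 1, Hr3 (16.3% of all genes). Hr3 was at 11.71, 11.70, 10.88 and 10.80 in the libraries labelled mutant larvae 2, 4, 65 and 66 and at 11.66 to 12.06 in wild type larvae. The first pair lay within the wild type range and the second pair below it. The difference was -0.59, or 1.51-fold lower (SE 0.25, adjusted p = 0.288). Hr4 had the same split: larvae 2 and 4 were at 11.04 and 10.71, and larvae 65 and 66 at 9.92 and 9.96, against 10.64 to 10.99 in wild type. Its difference was -0.47 (SE 0.35, adjusted p = 0.683), with all 11 probes negative. For Eip78C mutant larvae 2 and 4 were at 10.86 and 10.75 and larvae 65 and 66 lower, down to 9.82, with wild type larvae at 10.57 to 10.83, a difference of -0.37 (adjusted p = 0.646). Without the libraries labelled mutant larvae 65 and 66 these differences were -0.16 in Hr3, -0.01 in Hr4 and 0.07 in Eip78C, with adjusted p of 0.917, 0.998 and 0.969.

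The split follows the number series, and in mutant larvae also the age window, 29 to 50 h and 31 to 50 h for larvae 2 and 4 against 30 to 44 h for larvae 65 and 66, and the dye, Alexa against Cy5. Manf differed likewise, with larvae 2 and 4 below all wild type larvae and the libraries labelled 65 and 66 within their range. Wild type larvae were 29 to 44 h old in the low and 30 to 45 h in the high series, all in Cy3. In the low series alone Hr3 differed between mutant and wild type larvae by -0.05 (adjusted p = 0.982), in a fit that called 1.14% of all genes. In the high series alone it differed by -1.13 (SE 0.16, adjusted p = 0.00988) and was called, as were 1.21% of all genes there. That value rests on the libraries labelled mutant larvae 65 and 66, while in the pair with Manf below wild type Hr3 lay within the wild type range. Hr4 differed by -0.84 in the high series (adjusted p = 0.0449) and by -0.11 in the low one. Within the high series a dimmer Hr3 probe, on the same transcript, had 9.48 and 9.27 in these libraries against 10.71 and 10.51 in wild type. Another probe had 10.17 and 10.43 against 11.05 and 11.08, and another had 10.38 and 10.36 against 10.47 and 10.35, where no difference was seen. Series, age window, dye and the level of Manf cannot be told apart within the mutant larvae.

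In br the mutant larvae were at 11.07, 10.94, 10.58 and 10.83, while wild type larvae were at 11.77 and 11.68 in the low and at 10.85 and 10.72 in the high series. At the brightest br probe the difference was -0.40 (SE 0.21, adjusted p = 0.452). It was larger in the low series, where the groups are apart, than in the high one, where they overlap. Of 13 br probes 9 were positive and 4 negative. The 3 on the transcript of the brightest probe had -0.43 to -0.30, and 3 on another had 0.23 to 0.32. EcR differed by 0.40 and usp by 0.41, with adjusted p of 0.826 and 0.876, and ftz-f1 and Hr39 differed by 0.02 and -0.02. Without the libraries labelled mutant larvae 65 and 66 the values were 0.07 in EcR, -0.12 in usp, -0.25 in br, 0.19 in ftz-f1 and 0.35 in Hr39, with adjusted p from 0.558 to 0.987. Gut markers were at higher values in all 10 of 10 measured genes of mutant larvae (median 0.62, summed level 18.05 to 18.14 against 17.38 to 17.75), with the maltase gene Mal-A1 called at 1.37. Of the 4 haemocyte markers Hml was called at 1.41, while the other 3 were negative (median over the list -0.29). The part of these markers in the values of the members was not tested.

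The effect of the mutation could be compared between larvae and embryos, with the reservation that the embryos lacked maternal Manf as well. Hr3 lay above wild type in mutant embryos and below it in mutant larvae, and the difference of these differences was -1.37 (SE 0.36, 95% interval -2.12 to -0.61, adjusted p = 0.0643). By limma 0 of 8 members were called (1.05% of all genes), and 2, Hr3 and Eip78C, had an unadjusted p under 0.05 (13.5% of all genes). Eip78C had -0.82 (SE 0.37, adjusted p = 0.447) and Hr39 had -0.57 (adjusted p = 0.585). Within the high series, whose mutant larvae are the libraries labelled 65 and 66, Hr3 reached -2.11 (SE 0.23, adjusted p = 0.00318) and was called, as were 2.22% of all genes. With these libraries left out of the 22 samples it was -0.93 (adjusted p = 0.311), with -0.37 in Eip78C and -0.20 in Hr39. In the high series alone Hr3 of mz mutant embryos exceeded wild type by 0.98 (adjusted p = 0.00553), which was called as well (9.84% of all genes). There the mz mutant embryos were in Cy5 and the wild type ones in Cy3, so that dye and genotype cannot be told apart in that value. Within the low series the difference of differences in Hr3 was -0.62 (adjusted p = 0.876), with 0.57 in embryos, and these fits called 0.0156% and 0.0625% of all genes. Without the library labelled mz mutant embryo 1 the low series gave -0.94 (adjusted p = 0.399), with 0.89 in embryos (adjusted p = 0.188), and the remaining 21 samples gave -1.47 (adjusted p = 0.0286). In that low series fit 1 mz mutant embryo stood against 2 wild type ones, and usp was called in it (1.24, adjusted p = 0.00753), as were 13.3% of all genes.

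The order of Hr3 over the 6 groups was wild type larvae (11.86 ± 0.16), overexpressing larvae (11.81 ± 0.40), mutant larvae (11.27 ± 0.50), mz mutant embryos (9.14 ± 0.26), rescued embryos (8.51 ± 0.53) and wild type embryos (8.37 ± 0.26), as mean and SD with n = 4, or n = 2 for overexpressing larvae. The step between mutant larvae and mz mutant embryos is wider than the spread of either group. Other neighbours in this order overlapped. For Hr4 the order was overexpressing larvae (11.21 ± 0.06), wild type larvae (10.88 ± 0.16), mutant larvae (10.41 ± 0.56), rescued (8.68 ± 0.79), wild type (8.36 ± 0.58) and mz mutant embryos (8.19 ± 0.45). Here overexpressing and wild type larvae did not overlap, and every other neighbouring pair within a stage did.

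Overexpressing larvae 2 and 3 had 0 of 8 members called by limma against wild type larvae (0.711% of all genes), and 0 at an unadjusted p under 0.05 (13.8% of all genes). Manf itself was at 14.23 and 14.40 against 11.59 to 13.64. The receptor genes were at the low end: usp was at 9.45 and 9.48, below all wild type larvae (9.61 to 11.32), and EcR at 9.69 and 9.31 against 9.45 to 10.79. These differences were -1.03 (SE 0.69, adjusted p = 0.552) and -0.74 (SE 0.53, adjusted p = 0.589). Of 4 usp probes 1 had the other sign (0.28), as did 1 of 5 EcR probes (0.24). Eip78C, at 10.97 and 11.39, and Hr4, at 11.17 and 11.25, were above all wild type larvae, by 0.45 and 0.33 (adjusted p = 0.584 and 0.794). With 2 against 4 samples 37% of all genes did not overlap. Gut markers were at positive values here too, in 10 of 10 genes (median 0.56, summed level 17.97 to 18.16, 0 called by limma), and their part was not tested. By limma 0 of 10 had an unadjusted p under 0.05 here, and 2 of 10 in mutant larvae (16.3% of all genes). The comparisons of overexpressing and mutant larvae share their wild type samples and its dye. Both overexpressing larvae are of the low series, and in that series wild type larvae had usp at 10.03 and 9.61 and EcR at 9.98 and 9.45. Once number series entered as a block, Hr4 differed by -0.08, the other sign, Eip78C by 0.25, usp by -0.41 and EcR by -0.29, with adjusted p from 0.73 to 0.936.

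Against overexpressing larvae, mutant larvae had 0 of 8 members called by limma (3.31% of all genes) and 3 at an unadjusted p under 0.05 (23.9% of all genes). These were Eip78C (-0.82, SE 0.32, adjusted p = 0.138), EcR (1.14, SE 0.53, adjusted p = 0.221) and usp (1.45, SE 0.69, adjusted p = 0.228). Of 5 EcR probes 1 had the other sign (-0.49), as did 1 of 4 usp probes (-0.70). The mutant larvae are of both series and the overexpressing ones of the low series alone. Once number series entered as a block, the values were -0.62 in Eip78C, 0.70 in EcR and 0.83 in usp (adjusted p = 0.197, 0.293 and 0.265), and Hr4 went from -0.80 to -0.40. Without the libraries labelled mutant larvae 65 and 66 they were -0.38, 0.81 and 0.91 (adjusted p = 0.637, 0.587 and 0.639). When only samples in Cy5 were used, usp (1.99, adjusted p = 0.00234), Eip78C (-1.27, adjusted p = 0.00866) and Hr4 (-1.27, adjusted p = 0.00179) were called, as were 15.6% of all genes. The mutant larvae in Cy5 are the libraries labelled 65 and 66 of the high series and the overexpressing larvae all of the low one, so that genotype and series cannot be told apart in that fit.

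The receptor genes, called in no comparison of genotypes over the 22 samples, were called between the number series. With the groups in the model, samples of the high series exceeded those of the low series by 1.24 in usp (SE 0.21, adjusted p = 0.000341) and by 0.89 in EcR (SE 0.19, adjusted p = 0.0017). Hr4 was lower by -0.80 (SE 0.13, adjusted p = 0.000204) and br by -0.40 (SE 0.10, adjusted p = 0.00575). Between the series 4 of 8 members were thus called, 2 of them higher, where 18.4% of all genes were called and 11.9% higher. Hr3 differed by -0.27 (adjusted p = 0.191), ftz-f1 by -0.15 (adjusted p = 0.703), Eip78C by -0.40 (adjusted p = 0.0396) and Hr39 by -0.31 (adjusted p = 0.0436).

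Group by group the high series exceeded the low one in usp by 1.83 in wild type embryos, 1.92 in rescued embryos, 1.37 in wild type larvae and 1.08 in mutant larvae, but by 0.02 in mz mutant embryos. In EcR these values were 1.56, 1.28, 1.04 and 0.66, against -0.09 in mz mutants. The mz mutants were thus the group in which the receptor genes did not follow the series, a difference that was not tested. For Hr4 all 5 groups had lower values in the high series, by -0.91 in wild type embryos, -0.74 in mz mutants, -1.23 in rescued embryos, -0.21 in wild type larvae and -0.93 in mutant larvae.

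**Figure D4:**
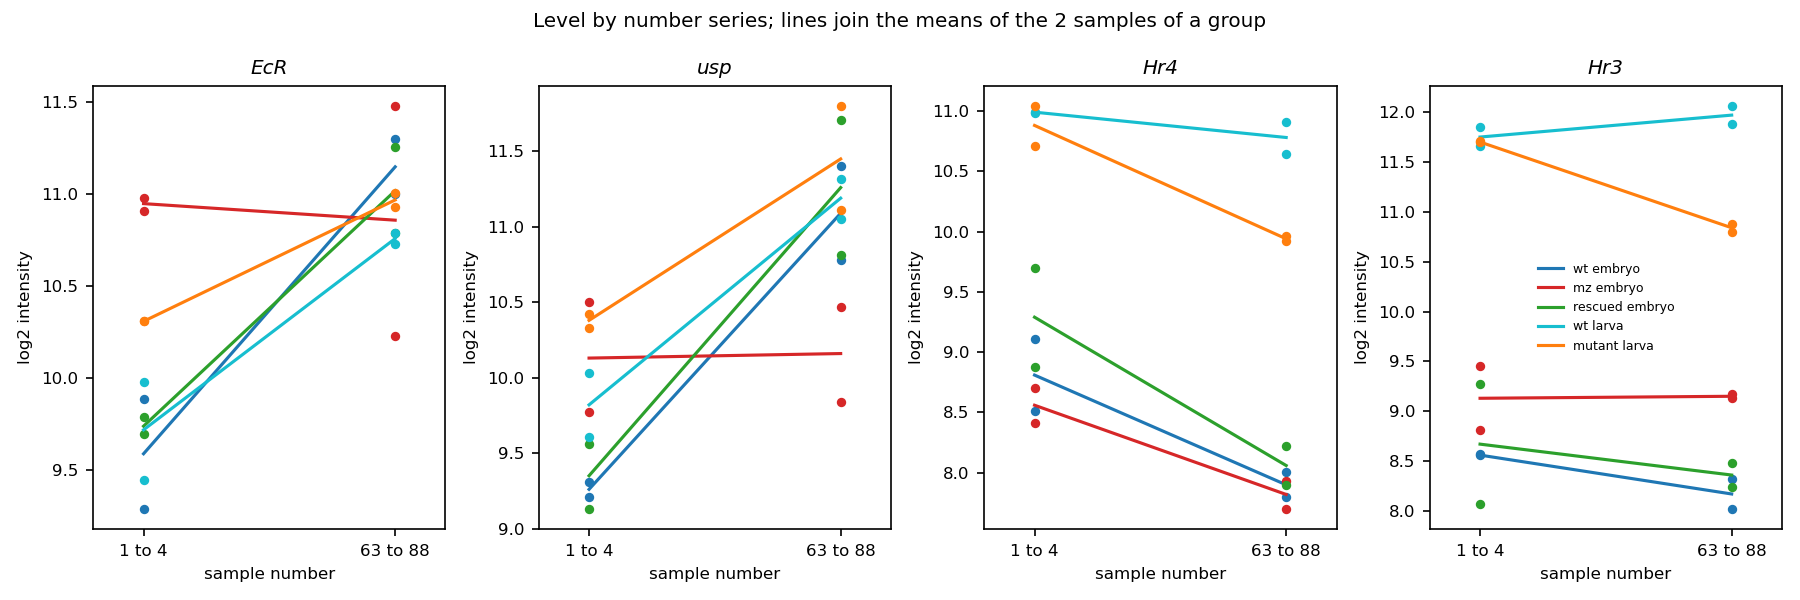
Log2 intensity of EcR, usp, Hr4 and Hr3 (vertical axis) in samples of the low (1 to 4) and high (63 to 88) number series. Points are samples and lines join the 2 means of each group. EcR and usp have higher means in the high series in 4 of 5 groups and nearly equal means in mz mutant embryos, and the difference in Hr3 is largest in mutant larvae (-0.87).

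EcR and usp, whose products form 1 receptor, deviated together within groups (r = 0.915 over 22 samples, 0.814 for the levels), and in 4 of 5 groups, mz mutant embryos excepted, their mean was higher in the high number series. Both ran against Hr4 within groups (-0.752 for EcR and -0.753 for usp). Hr3 and Hr4 had r = 0.926 for levels, most of which is the stage difference, and 0.629 within groups. These correlations share dyes and series and are descriptions.

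The probes of the receptor genes did not run alike. Of 4 usp probes 3 followed each other (r with the brightest of 0.940 and 0.963), and the remaining one ran the other way (-0.85). That probe was at 10.73, 10.83, 9.88 and 9.60 in wild type embryos 1, 2, 82 and 83, where the brightest was at 9.31, 9.21, 10.78 and 11.40. All 4 usp probes, this one included, differed between the series beyond the threshold. For EcR 1 further probe of the same transcript followed the brightest (0.946), while the probe on the other annotated transcript had -0.682. That probe was at 9.24, 9.27, 8.43 and 8.50 in wild type larvae 1, 2, 63 and 65 and at 8.55, 8.69, 8.01 and 7.91 in wild type embryos, a stage difference of 0.57 (adjusted p = 0.162). A level of usp or EcR in 1 series therefore depends on the probe that is read.

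For each member the 2 genes with the most similar levels over the 22 samples were sought among all other genes. Hr3 was followed by Sgsh (r = 0.984) and CG11905 (0.972), and Hr4 by mas (0.990) and tyn (0.979). Within the 12 embryos alone these had r of 0.862, 0.923, 0.983 and 0.906. Next to usp were PKD (0.977) and MED1 (0.967), next to EcR blot (0.936) and GramD1B (0.932), and next to Eip78C Bicra (0.926) and eIF2D (0.905). The usp and EcR values hold for the brightest probe alone, which in both genes was called between the number series. Dora (0.916) and Drl-2 (0.890) were nearest to br, CG13046 (0.899) and CG15249 (0.890) to ftz-f1, and spen (0.830), behind a gene known by a lethal allele (0.837), to Hr39.

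Some known targets of the hormone were higher in larvae, as Hr3 and Hr4 were. Of 19 measured genes of a list of ecdysone inducible and stage specific targets 7 were called higher and the other 12 not at all in wild type larvae against wild type embryos, with a median over the list of 0.33, where all genes had 0. Of all genes 22.9% were called and 12.9% called higher in this comparison. ImpL1 (4.15, SE 0.79) and Blimp-1 (4.10, SE 0.26) had the largest values. Blimp-1 encodes a repressor that the hormone induces and that delays ftz-f1 in prepupae, and ImpL1, ImpE1 (3.16) and ImpE3 (1.77) were first found as hormone induced genes of imaginal discs. The transporter gene E23 (1.66), the clock factor gene vri (2.21) and Cth (1.24), formerly Eip55E, were the others. In the genotype comparisons and the interaction 0 of 19 were called by limma, with 1 to 4 at an unadjusted p under 0.05 in each, where 5.21% to 25.6% of all genes were. In mutant against wild type larvae the median was -0.27 (all genes -0.02) with 13 of 19 negative. There Blimp-1 differed by -0.97 (SE 0.26, adjusted p = 0.0374) and was not called. The groups did not overlap in Blimp-1, as was so, with mutant larvae lower, in 7.83% of all genes. Its value without the mutant libraries whose Manf lay within the wild type range is not given.

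Among the 13 other nuclear receptor genes 2 were called in wild type larvae against embryos, where 22.9% of all genes were. Hr38, whose product can pair with Ultraspiracle, was higher (1.42, SE 0.32) and ERR, a receptor that governs metabolism, lower (-1.17, SE 0.30). In mz mutant embryos Hr38 had 1.27 (adjusted p = 0.0154) and was not called. It did not overlap with wild type, as was so, with mz mutants higher, in 6.3% of all genes. The receptor gene svp was called higher in mutant larvae (0.90, SE 0.17, adjusted p = 0.00427) and in overexpressing larvae (1.08, SE 0.21, adjusted p = 0.00987), which share their wild type samples and its dye. Without the libraries labelled mutant larvae 65 and 66 svp had 0.79 in mutants (adjusted p = 0.0513). Of 9 genes for coregulators and uptake of the hormone 2 were called, both higher, in wild type larvae against embryos (12.9% of all genes were called higher). These were rig (1.26) and alien (1.35), for a coactivator and a corepressor of nuclear receptors.

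Genes of ecdysone synthesis, upstream of the members, were measured for 15 of 15 listed. In wild type larvae 3 of 15 were called higher than in embryos, sad (1.77), shd (0.85) and woc (0.97), where 22.9% of all genes were called and 12.9% higher. Of these sad and shd encode hydroxylases of the pathway and woc a zinc finger protein needed for it. In mz mutant embryos the median over the list was -0.44 (all genes -0.05), with 12 of 15 negative. There 1 of 15 was called (5.66% of all genes): spok, for an early step, at -1.04 (SE 0.24, adjusted p = 0.0085). Without the library labelled mz mutant embryo 1 spok had -1.33 (adjusted p = 8.5e-05). In mutant larvae against wild type 0 of 15 were called by limma (2.3% of all genes) and 3 had an unadjusted p under 0.05 (16.3% of all genes), with a median of -0.11. The gene shd, which makes the active hormone from ecdysone in target tissues, was called lower in overexpressing larvae (-1.67, SE 0.24), where 0.711% of all genes were called. Between mutant and overexpressing larvae 3 of 15 were called (3.31% of all genes). There shd (1.75) and spok (1.55) were higher in mutants, and Ptth (-1.09), for the brain hormone that stimulates the gland, lower. Without the libraries labelled mutant larvae 65 and 66 Ptth had -0.94 and was not called (adjusted p = 0.0336), while shd and spok were.

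The other hormone lists held few calls. Of 9 late puff genes (Eig71E) 0 were called by limma in any comparison, and at most 1 in each had an unadjusted p under 0.05. Of 10 genes of juvenile hormone Fpps was called higher (0.77) and jhamt lower (-0.53) in wild type larvae against embryos, where 22.9% of all genes were called. Of 6 genes for ecdysis peptides and their receptors Burs, for a subunit of the tanning hormone bursicon, was called lower in larvae (-1.22), and ETH, for ecdysis triggering hormone, had -0.76 in mz mutant embryos (adjusted p = 0.0632). Among markers of other tissues in the stage comparison, the digestive protease gene Jon66Ci was called higher (3.91) and Mal-A1 (-0.92) and the haemocyte gene NimC1 (-0.75) lower. Neither list ran one way. Of 10 gut genes 5 were positive and 5 negative (median 0.05), and the 3 haemocyte genes other than NimC1 were positive (median over the list 0.27). Of the neuron (5), muscle (3) and fat body (4) markers 0 were called by limma in any comparison, and at most 1 of each list had an unadjusted p under 0.05. Of the ring gland markers (5), most of which are genes of ecdysone synthesis, sad alone was called, in the stage comparison.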

How the data were processed

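RNA of 24 pools of whole animals was hybridised to Agilent arrays of 4 x 44K format. The authors read spots in GenePix Pro as median intensities, used limma for preprocessing and deposited normalised log2 values, which were used as they are for 45220 probes (0 missing). Sample medians were nearly alike. Spot backgrounds were not used, and the number of arrays limits the precision. Gene names came from the platform annotation, updated by gene identifier: 29872 probes had 1 gene name. Every column of values was tied to a sample by its label.

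In R 4.3.3 with limma 3.58.1 a model of 6 group means was fitted over 22 samples, with Benjamini-Hochberg adjustment across the 45220 probes and a threshold of 0.01. In simulated wild type stage comparisons of 45220 probes 46 of 100 changes of 1 log2 unit and 83 of 100 of 2 units were found, with 2 false calls. The simulated noise was normal and independent between samples, without a number series effect, and no other probes were changed. In the measured comparison 16.1% of probes were called, so that these rates need not hold there. The genes named were all members at every probe, Manf, the 2 most similar genes of each member, and called or chosen genes of the lists. Hr38, Blimp-1 and ETH outside calls were named after their values were seen. Members, lists and the samples left out were chosen with earlier results of these data known. Alternatives covered normalisation, dim probes, probe choice, dye, number series, weights, thresholds and single samples.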

Additional observations from a re-analysis of the deposited data

Results flagged for a closer look

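In 40 groups of 4 values, each tested for a sample far from the others, 2 were marked, and chance marks about 1 in 20. Eip78C in mz mutant embryo 88 was at 11.25 while the other 3 mz mutants were at 10.58 to 10.69. In rescued embryo 84 br was at 11.43 and the other 3 rescued embryos were at 11.80 to 11.86.

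The change of Hr3 with the mutation differed between larvae and embryos in the high number series (-2.11), where the difference was tested and called. The mutant larvae of that series are the libraries labelled 65 and 66, whose Manf lay within the range of wild type larvae. In the low series it was -0.62 and was not called.

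Overexpressing larvae 69 and 70, outside the comparisons, had ftz-f1 at 13.82 and 9.52. All wild type larvae were at 7.23 to 8.16, and the 22 other samples at 7.23 to 9.97. In larva 69 Hr4 was at 12.01, where the 22 other samples reached 11.25. Only values above wild type larvae were flagged, and these 2 samples were out of range downwards too. Larvae 69 and 70 had br at 6.45 and 6.51 and Hr39 at 9.79 and 7.38, where the 22 others began at 10.58 and 12.04. Larva 70 was also below them in EcR (6.77), Eip78C (6.95) and Hr4 (7.38).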

How the results depend on the processing

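Each member was refitted under 22 settings and with each of the 22 samples left out, 2648 values in all. Of these 2639 kept their call or lack of one, 1 lost its call, 7 gained one and 1 gained one with the other sign, usp in mz mutant against wild type embryos (-0.03 over 22 samples, 1.24 in the low series without the library labelled mz mutant embryo 1, where 1 member was called). Among values that were not called 138 had the other sign, the largest br between mutant and overexpressing larvae (2.18 with all 24 samples, -0.02 without larvae 69 and 70). The number of members called between the wild type stages fell from 2 to 1, Hr3, with all 24 samples. The high series alone called 1 member, Hr3, in mz mutant against wild type embryos, in mutant against wild type larvae and in the interaction, against 0 over all samples, with larvae 65 and 66 the mutants there, and samples in Cy5 alone called 3 between mutant and overexpressing larvae against 0. The remaining call gained was ftz-f1 between the wild type stages with array weights. Leaving out single samples gave 2 to 2 members called between the wild type stages and 0 to 0 in the other comparisons. The causes were not tested.

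Samples of different groups with the same number had correlations of their deviations from the group means of -0.225 to 0.54 (19 pairs, median 0.282). Pairs with other numbers of the same series had a median of 0.219 (81 pairs), and pairs across the series -0.271 (100 pairs). What samples of the same number share beyond their series cannot be told from these values. With the number series as a replicate block 2 members were called between the wild type stages and 0 elsewhere, as without it, and Hr3 in mz mutant embryos had 0.78 (adjusted p = 0.0367). With the sample number as a random replicate block the counts were also 2 and 0. The block of number series with dye as a covariate, and the rule that any probe of a gene may be called, and the fits that leave out doubted libraries together, were chosen after seeing the data. Samples in Alexa alone gave no comparison with wild type.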
